A study of Mus musculus with 8 samples.

Results

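The genes of 6 metabotropic glutamate receptors, Grm2, Grm3, Grm4, Grm5, Grm7 and Grm8, were taken by symbol from the 29442 genes of a hippocampal count table, and all 6 were found. Other genes of the family were not analysed here. Metabotropic glutamate receptors are class C G protein-coupled receptors that work as dimers, with a large extracellular domain that closes on glutamate. Group I receptors, here Grm5, couple to Gq and phospholipase C and sit mainly around the postsynaptic density. Group II (Grm2 and Grm3) and group III (Grm4, Grm7 and Grm8) couple to Gi/o, and most of them act on presynaptic terminals, where they reduce the release of glutamate and GABA. In the hippocampus, mGlu5 is known for its part in synaptic plasticity, mGlu2 for the control of release from mossy fibre and perforant path terminals, and mGlu3 for its presence in glia as well as neurons.

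Ventral hippocampal RNA was sequenced from 8 female C57BL/6 J mice, described as 6 to 8 weeks old, with no age given at tissue collection. Of these, 4 had received subcutaneous DHEA, an adrenal androgen precursor, at 30 mg/kg/day for 21 days, and 4 had received sesame oil, the vehicle, for the same time. All mice had been through behavioural tests before tissue collection, and the labels give no genetic change in either group. Libraries are named here by the number of the mouse. Mice 3, 4, 7 and 11 were labelled DHEA, and mice 5, 9, 10 and 16 were labelled sesame oil. Every direction below follows these deposited labels. The study's own table of differentially expressed genes carries the opposite sign for the same libraries, so which treatment a direction belongs to rests on the labels.

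The libraries labelled DHEA held 35748416 to 38038361 counts on genes (median 36499420). Those of the sesame oil group held fewer, 31483772 to 35418297 (median 32933563), without overlap. At this depth the mean count per library was 11411 for Grm5 and 279 for Grm8, the lowest of the 6 genes. Counting error alone would give a coefficient of variation of 0.936% for Grm5 and 5.99% for Grm8. The samples carried the markers of the hippocampus they were labelled as. Calb1 (44.1 FPKM, mean of 8 libraries) and Wfs1 (29.3 FPKM) led the lists for dentate granule cells and CA1 pyramidal cells, and each of these markers was detected. The libraries also differed in other respects along with the labels. The share of counts from mitochondrially encoded genes was 7.29% to 9.34% under the DHEA label and 6.37% to 7.23% under the sesame oil label. Each library's trend of expression with GC content ran from -0.159 to -0.0103 (Spearman correlation across genes) in the former and from 0.0729 to 0.184 in the latter. These measures and the treatment cannot be told apart by design.

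Per transcript length, Grm5 was the most abundant of the 6 receptors in every library. FPKM, the authors' values scaled to library depth and to the length of each gene, compare genes of different length. Grm5 was at 36.3 ± 2.17 FPKM (SD, n = 8), between 33.3 and 39.4. Grm2 (12.2 ± 1.51 FPKM), Grm3 (10.2 ± 1.38 FPKM) and Grm7 (9.51 ± 1.13 FPKM) formed a middle tier. Grm4 (1.52 ± 0.339 FPKM) and Grm8 (1.28 to 1.70 FPKM, SD 0.115) formed the lowest tier. The tiers did not overlap. Grm5 was 2.42 to 3.85 times as high as Grm2 within a library, and Grm7 was 4.86 to 10.8 times as high as Grm4.

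**Figure D1:**
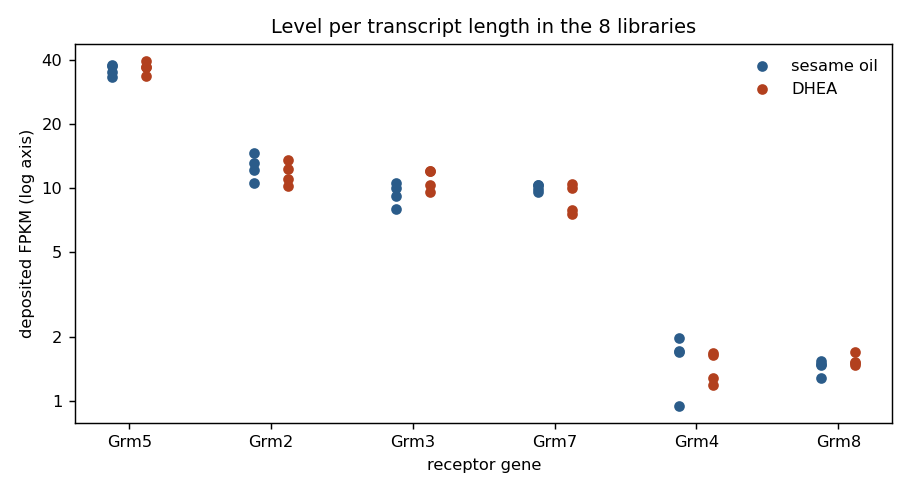
Deposited FPKM (log axis) of the 6 receptor genes, 1 point per library, coloured by label. Grm5 lies at 33.3 to 39.4 FPKM, clear of the middle tier of Grm2, Grm3 and Grm7, and Grm4 and Grm8 lie below 2 FPKM in all 8 libraries.

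Within a tier the order was not fixed. Grm2 exceeded Grm3 in 6 of 8 libraries, Grm3 exceeded Grm7 in 5 of 8, and Grm4 exceeded Grm8 in 5 of 8, and the ranges of these neighbours overlapped. The single group I gene made up 47.1% to 55.7% of the summed FPKM of the 6 receptors (median 50.8%). The group II genes held 26.7% to 33.7% (median 32.7%) and the group III genes 14.8% to 19.3% (median 18.1%). These shares depend on the 1 length per gene behind the FPKM, which was 3323 bases for Grm2 and 8982 bases for Grm5, so isoforms of other lengths would shift them.

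The comparison of the study asked how chronic DHEA changes gene expression in the hippocampus of female mice. Among the receptor genes the largest difference was a 1.19-fold higher mean of Grm3 in the libraries labelled DHEA. With edgeR's quasi-likelihood test over all 27612 genes with at least 1 count, 1 of the 6 receptors, Grm3, had an unadjusted p under 0.05, and 0 had an adjusted p under 0.05 (Benjamini-Hochberg). Across all genes tested, the same unadjusted threshold was passed by 9.31% (4.82% with a higher and 4.49% with a lower mean under the DHEA label). Among the 12780 genes averaging 100 counts or more per library, as all 6 receptors do, it was passed by 15.7% (8.08% higher and 7.6% lower). An adjusted p under 0.05 was reached by 0 of the 27612 genes, and 2571 had an unadjusted p under 0.05. DESeq2 called 153 genes at that adjusted level (1.21% of the 12623 it judged), and 0 of the 6 receptors. The thresholds of the study (fold change 2 or more, or 0.5 or less, and unadjusted p under 0.05) were met by 0 receptors, by 1.6% of the genes tested and by 0.0156% of those averaging 100 counts or more. In 0 of the 6 receptors were the groups free of overlap, against 5.04% of all genes (2.42% higher and 2.62% lower) and 8.46% of those averaging 100 counts or more (4.23% in either direction). The log2 fold changes of 3 receptors were above 0 and those of 3 were below, with a median of -0.0071 (0.0079 over all genes tested). Regardless of sign their median size was 0.12, beside 0.21 over all genes tested and 0.098 over those averaging 100 counts or more. In bulk tissue, fewer cells of a type and less RNA per cell cannot be told apart.

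**Figure D2:**
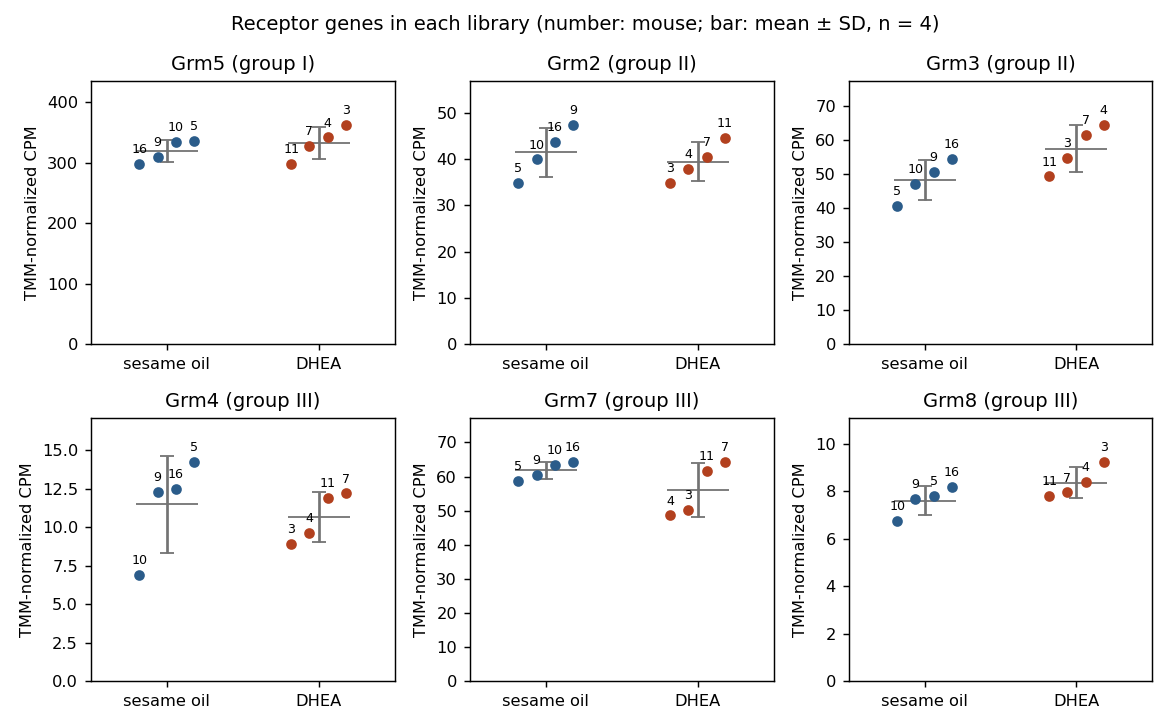
TMM-normalized CPM of each receptor gene (y axis, from 0) in the 4 sesame oil and 4 DHEA libraries, numbered by mouse, with the mean and SD (n = 4). The groups overlap for all 6 genes, Grm7 is low in mice 3 and 4 alone, and Grm4 is lowest in mouse 10.

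Grm5 encodes mGlu5, the Gq-coupled receptor that binds Homer scaffolds. CPM, the counts scaled to TMM-normalized library size, compare 1 gene between libraries. Grm5 was at 362, 342, 328 and 298 CPM in mice 3, 4, 7 and 11, labelled DHEA. In mice 5, 9, 10 and 16, labelled sesame oil, it was at 336, 310, 334 and 299 CPM. The highest values were those of mice 3 and 4 and the lowest those of mice 11 and 16, so each label held a library at the bottom of the range. Group means were 333 ± 27.2 CPM (SD, n = 4) and 320 ± 18.5 CPM (SD, n = 4), with a log2 fold change of 0.06 (standard error 0.07, edgeR adjusted p = 0.754). This difference was within the spread between mice (two-sided exact permutation test over 70 allocations, p = 0.543). The coefficient of variation over all 8 libraries was 6.92%, the smallest of the 6 receptors.

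Grm2 and Grm3, the group II receptors, are close relatives that share their coupling. Their promoters are shown so that the pair can be compared, from 250 bases before to 50 after a transcription start, 5′ to 3′ on the coding strand, with capitals marking each GC box (GGGCGG on either strand). They come from RefSeq on build GRCm38.p6, while the submitters' processing notes name GRCm39 for the counts. The Grm2 window is chr9:106656060-106656359 and the Grm3 window chr5:9725303-9725602, both on the minus strand.
Grm2: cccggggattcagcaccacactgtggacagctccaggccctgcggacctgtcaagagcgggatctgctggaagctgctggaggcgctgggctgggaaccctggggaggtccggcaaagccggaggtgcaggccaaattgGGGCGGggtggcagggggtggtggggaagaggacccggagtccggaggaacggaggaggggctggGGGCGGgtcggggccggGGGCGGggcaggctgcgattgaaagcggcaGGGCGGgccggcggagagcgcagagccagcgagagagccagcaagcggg
Grm3: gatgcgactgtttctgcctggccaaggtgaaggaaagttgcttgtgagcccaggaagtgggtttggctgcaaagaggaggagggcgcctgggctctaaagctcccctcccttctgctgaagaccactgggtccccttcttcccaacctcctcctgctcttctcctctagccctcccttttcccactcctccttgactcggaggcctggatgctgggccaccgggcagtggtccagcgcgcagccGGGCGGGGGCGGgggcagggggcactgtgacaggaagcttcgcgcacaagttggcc
The Grm2 window held 4 GC boxes at 72.0% GC, and the Grm3 window held 2 adjoining ones at 63.7% GC. A GC box was present in 35.7% of the 32851 windows of the same length in the table, whose median GC content was 52.7%. A single arm of the androgen response element (AGAACA on either strand) was in neither of these windows, in 1 window of Grm8, and in 19.0% of the 32851. Windows of Grm7 and Grm8 were in the table too, so 4 of the 6 receptors matched, and Grm4 and Grm5 did not.

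Grm3 encodes mGlu3, which also responds to the peptide transmitter N-acetylaspartylglutamate (NAAG). In the libraries labelled DHEA it was at 54.8, 64.5, 61.5 and 49.3 CPM (mice 3, 4, 7 and 11). The libraries labelled sesame oil had 40.7, 50.7, 47.2 and 54.5 CPM (mice 5, 9, 10 and 16). Mice 4 and 7 were clearly above every sesame oil library, mouse 3 was only just above the highest of them, and mouse 11 fell within their range. Means were 57.5 ± 6.79 CPM (SD, n = 4) against 48.3 ± 5.85 CPM (SD, n = 4). The log2 fold change was 0.25 (standard error 0.09), with an edgeR p of 0.0151 before and 0.409 after Benjamini-Hochberg adjustment. By the exact permutation test this was within the spread between mice (p = 0.114). Without mouse 4 the unadjusted p of the edgeR fit was 0.0567 (log2 fold change 0.19), and without mouse 5 it was 0.0728 (log2 fold change 0.18). The adjusted p of Grm3 ran from 0.256 (DESeq2) to 0.569 (limma-trend on log2(FPKM + 1)) over the 10 other settings tried.

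Grm2 encodes mGlu2, a presynaptic autoreceptor. It was at 34.9, 38.0, 40.6 and 44.6 CPM in mice 3, 4, 7 and 11, against 34.9, 47.4, 39.95 and 43.7 CPM in mice 5, 9, 10 and 16. The lowest values were those of mouse 3, labelled DHEA, and mouse 5, labelled sesame oil. Means were 39.5 ± 4.14 and 41.5 ± 5.37 CPM (SD, n = 4 each), with a log2 fold change of -0.07 (standard error 0.10, edgeR adjusted p = 0.791). The FPKM ratio of Grm3 to Grm2, a comparison chosen after the values were seen, ran from 0.71 to 1.09 under the DHEA label and from 0.687 to 0.801 under the sesame oil label. Mouse 11 was the only library labelled DHEA inside the sesame oil range. The ratio averaged 0.946 ± 0.165 against 0.749 ± 0.0473 (SD, n = 4 each), a difference within the spread between mice (two-sided exact permutation test, p = 0.114).

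Grm7 encodes mGlu7, a low-affinity receptor of the presynaptic active zone. It was at 50.2 and 48.6 CPM in mice 3 and 4, and at 64.2 and 61.7 CPM in mice 7 and 11, all labelled DHEA. Every library labelled sesame oil was between 58.8 and 64.4 CPM (mice 5, 9, 10 and 16 at 58.8, 60.4, 63.5 and 64.4). So mice 3 and 4 lay below all the others, while mice 7 and 11 lay among the sesame oil libraries. Accordingly the coefficient of variation was 14.1% under the DHEA label and 4.25% under the sesame oil label. The log2 fold change was -0.14 (standard error 0.09, edgeR adjusted p = 0.643), and the exact permutation test gave p = 0.314. In a fit without mice 3 and 4, left out because their Grm7 was lowest, the log2 fold change was 0.021. That value follows from the choice of libraries and tests nothing about Grm7. Without mouse 7 the log2 fold change was -0.21 (unadjusted p = 0.0223). Mice 3 and 4 were also the libraries with the strongest negative GC trends (-0.128 and -0.159) and the largest mitochondrial shares (7.87% and 9.34%). With the GC correction the log2 fold change of Grm7 was -0.16 (unadjusted p = 0.0905), and with mitochondrially encoded genes left out it was -0.14 (unadjusted p = 0.129).

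**Figure D3:**
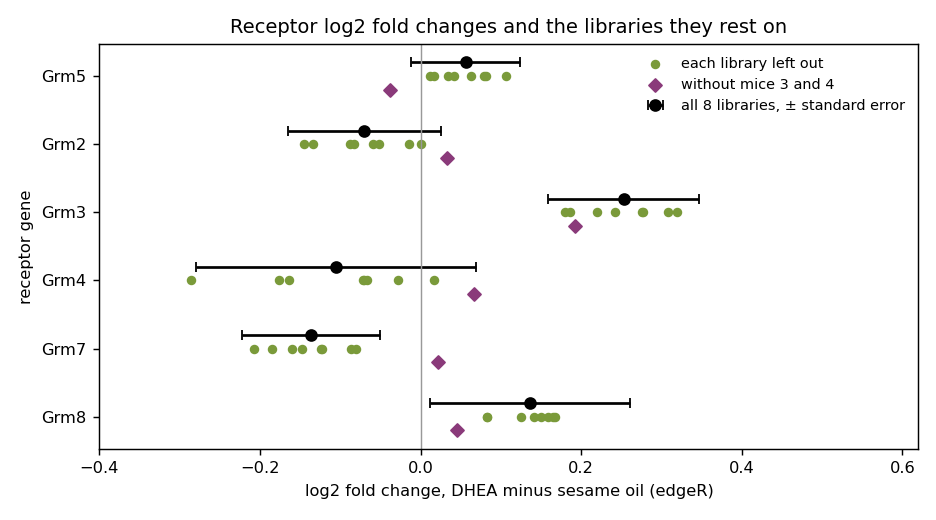
Log2 fold change (DHEA minus sesame oil, edgeR) of the 6 receptors with all 8 libraries (black, ± standard error), with each library left out in turn (green) and without mice 3 and 4 (purple). With each library left out, Grm3 stays between 0.18 and 0.32 and Grm7 between -0.21 and -0.08. Without mice 3 and 4, left out because their Grm7 was lowest, Grm3 is at 0.19 and Grm7 at 0.021, the latter a result of that choice.

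Grm4 and Grm8 encode the high-affinity group III receptors mGlu4 and mGlu8. Grm4 was at 8.91, 9.65, 12.2 and 11.9 CPM in mice 3, 4, 7 and 11, and at 14.3, 12.3, 6.92 and 12.5 CPM in mice 5, 9, 10 and 16. Mice 5 and 10, both labelled sesame oil, held the highest and the lowest value, a 2.06-fold range that was the widest among the 6 receptors. Its log2 fold change was -0.11 (standard error 0.17, edgeR adjusted p = 0.848). Without mouse 10, its lowest value, the groups no longer overlapped and the log2 fold change of Grm4 was -0.29 (unadjusted p = 0.0539). Smaller groups separate more easily, and the share of all genes without overlap in that split is not given here. Grm8 was at 9.26, 8.41, 7.96 and 7.80 CPM in mice 3, 4, 7 and 11, and at 7.82, 7.68, 6.76 and 8.19 CPM in mice 5, 9, 10 and 16. Its highest value was that of mouse 3 and its lowest that of mouse 10, with the rest close together. The log2 fold change of Grm8 was 0.14 (standard error 0.12, edgeR adjusted p = 0.666), and the exact permutation test gave p = 0.171. The coefficient of variation of Grm8 over the 8 libraries was 8.88%, against the 5.99% that counting error alone gives, whereas for Grm4 it was 21.5% against 5.10%.

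Because mGlu3 is found in glia, the values of glial marker genes stand here beside those of Grm3. By edgeR 0 of these markers had an adjusted p under 0.05. Of the 5 astrocyte markers, 3 had an unadjusted p under 0.05 and a higher mean in the libraries labelled DHEA (Gfap, Gja1 and Gjb6), and for Gja1 p was 0.143 after GC correction. Without mice 3 and 4, p was 0.0561 for Gfap and 0.0512 for Gja1. That threshold was passed in this direction by 4.82% of all genes and 8.08% of those averaging 100 counts or more. All 5 were detected in every library, and Gja1, a gap junction protein, was the most abundant at 79.8 FPKM. Their summed level was 876, 1022, 861 and 878 CPM in mice 3, 4, 7 and 11, against 741, 885, 772 and 760 CPM in mice 5, 9, 10 and 16. The groups overlapped through mouse 9, and the difference of the sums was within the spread between mice (two-sided exact permutation test, p = 0.114). All 3 oligodendrocyte markers (Mbp, Mog and Mag) had an unadjusted p under 0.05 and a higher mean, and Mbp, which encodes myelin basic protein, was the most abundant at 330 FPKM. Their summed level was 3151, 4101, 3108 and 3407 CPM under the DHEA label, against 2651, 3110, 2590 and 2173 CPM under the sesame oil label, in the same order of mice. Here too the groups overlapped through mouse 9, which was level with mouse 7 (two-sided exact permutation test, p = 0.0571). Without mice 3 and 4, p was 0.0591 for Mag, whose log2 fold change was 0.28 in place of 0.29. For oligodendrocyte precursors, 1 of 2 markers passed in the same direction (Pdgfra, 8.46 FPKM, the more abundant of the pair), and their sum was 101 to 107 against 82.4 to 97.2 CPM.

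**Figure D4:**
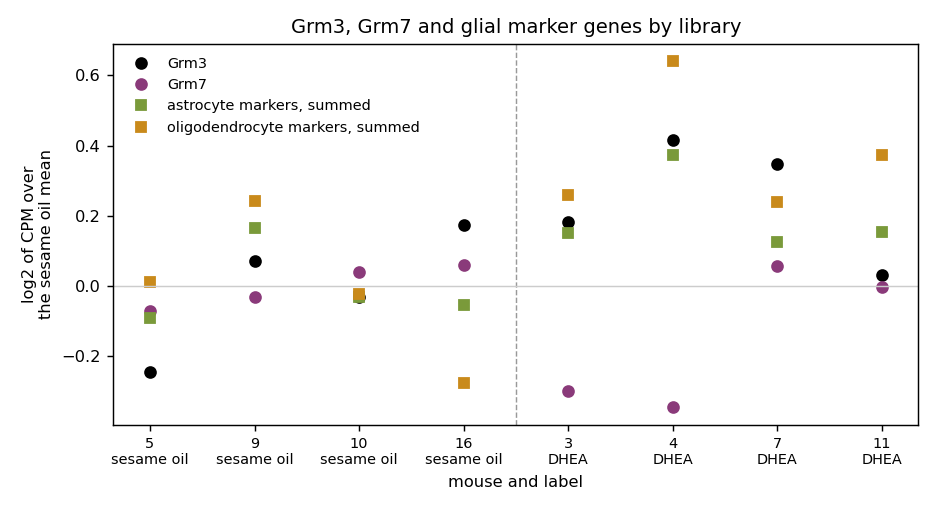
Log2 of the CPM of Grm3, Grm7 and the summed astrocyte and oligodendrocyte markers over their sesame oil mean (y axis), for each mouse (x axis, split by label). Mouse 4 has the highest value of Grm3 and of both marker sums, mouse 16 has the lowest oligodendrocyte sum but not the lowest Grm3, and Grm7 is low in mice 3 and 4.

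Mouse 4 was highest in Grm3 and in both marker sums. Mouse 5 was lowest in Grm3 and in the astrocyte sum. Mouse 16 had the highest Grm3 of its group and the lowest oligodendrocyte sum, and mouse 11 had the lowest Grm3 of its group with an oligodendrocyte sum above those of mice 3 and 7. The part of glial content in the Grm3 difference was not tested. The unadjusted threshold was passed by 1 of 4 CA1 pyramidal, 1 of 4 microglial and 1 of 3 endothelial markers, each with a higher mean in the libraries labelled DHEA. In either direction it was passed by 9.31% of all genes and 15.7% of those averaging 100 counts or more. With a higher mean alone these shares were 4.82% and 8.08%. The CA1 marker that passed was Spink8 (log2 fold change 0.32), while Wfs1, Fibcd1 and Mpped1 were at -0.10, -0.11 and -0.08. The summed level of the CA1 list had a mean of 399.9 CPM under the DHEA label and 424 CPM under the other. Without mice 3 and 4 none of these 3 calls held, with p-values of 0.279 for Spink8 (log2 fold change 0.17), 0.362 for the microglial P2ry12 (0.076, against 0.37 with all libraries) and 0.0585 for the endothelial Pecam1 (0.25, against 0.30). With all libraries the threshold was passed by 0 of 4 dentate granule cell, 0 of 5 interneuron, 0 of 4 thalamic, 0 of 3 neocortical and 0 of 3 choroid plexus markers. The most abundant genes of these lists were Wfs1, Csf1r (19.8 FPKM), Cldn5 (20.1 FPKM), Calb1, Sst (146 FPKM), Prkcd (5.78 FPKM), Lamp5 (13.1 FPKM) and Ttr (1601 FPKM). Choroid plexus markers summed to 83.7 CPM in mouse 4 and to between 477 and 4264 CPM in the other libraries. Of 5 anterior pituitary markers, 4 had a lower mean under the DHEA label and 3 of these (Gh, Prl and Pomc) passed the unadjusted threshold. The most abundant was Prl (3.04 FPKM), and the sum of the list was 0.903 to 1.21 CPM in the libraries labelled DHEA. It was 1.21, 6.23, 28.5 and 2.73 CPM in mice 5, 9, 10 and 16. The groups did not overlap, with mouse 5 only just above mouse 4. The paper already names Gh, Prl and Pomc as differentially expressed in these libraries. Their sum is therefore a description and not an independent test, and no p is given for it.

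For each receptor, the genes whose log2(CPM + 0.5) varied most alike over the 8 libraries were picked out of the 12780 averaging 100 counts or more. Because they were chosen as the highest of so many, they are a description of these 8 libraries only and carry no p. Grm3 varied most like Pcdh9, a protocadherin (Pearson's r 0.987, Spearman's rho 1), and Rhobtb3 (0.958, rho 0.976). Nearest to Grm7 were Inpp5b (0.991) and Letm2 (0.991), and nearest to Grm5 were Pcdhga5 (0.978) and 2310057M21Rik (0.970). Tbc1d24 (0.955) and Git2 (0.941) came nearest to Grm2. For Grm4 these were Zfp560 (0.951) and Egfem1 (0.937), and for Grm8 they were Gpc3 (0.970) and Snapc5 (0.960). None of the 6 receptors was among the nearest genes of another. All of these genes were read from the same libraries, and the part of depth or base composition in their likeness was not tested.

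Beyond the receptors themselves, 67 genes of their signalling were read from the same fit, in 6 lists, and 66 of them averaged 100 counts or more. An unadjusted p under 0.05 was found in 12 of the 67 (17.9%), 4 with a higher and 8 with a lower mean in the libraries labelled DHEA, beside 9.31% of all genes and 15.7% of those at or above that level. By edgeR 0 of the 67 had an adjusted p under 0.05, and by DESeq2 3 did (Shank2, Elfn2 and Arrb2). The median log2 fold change of the 67 genes was 7.58e-05. In 6 of the 67 (8.96%) the groups did not overlap, against 5.04% of all genes and 8.46% of those averaging 100 counts or more. After GC correction 9 of the 67 passed the unadjusted threshold, and 2359 genes in all. Without mice 3 and 4 it was 8 of the 67 and 2135 genes in all, against 2571 with all libraries.

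**Figure D5:**
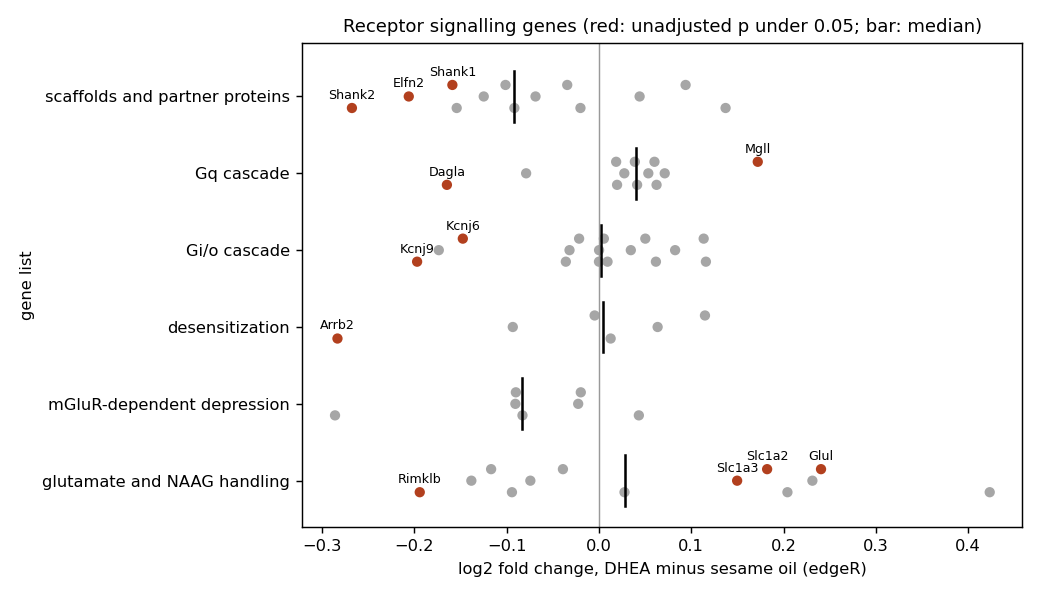
Log2 fold change (x axis, DHEA minus sesame oil, edgeR) of the 67 signalling genes in their 6 lists (y axis), with the median of each list as a bar. The 12 named red genes have an unadjusted p under 0.05, and scaffolds and partner proteins have the lowest median, -0.09.

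Scaffolds and partner proteins link the receptors to the synapse. Of 13, 3 passed the unadjusted threshold, all with a lower mean in the libraries labelled DHEA, and the median log2 fold change of the list was -0.09. Shank2, a postsynaptic density scaffold that meets group I receptors through Homer, was at 186 to 218 CPM under the DHEA label and at 232 to 259 CPM under the sesame oil label. Its groups did not overlap, and the log2 fold change was -0.27 (standard error 0.06, unadjusted p = 0.00049, edgeR adjusted p = 0.24). Elfn2, a transmembrane partner that binds group III receptors across the synapse, was at 175 to 190 against 205 to 219 CPM, also without overlap. Its log2 fold change was -0.21 (standard error 0.06, edgeR adjusted p = 0.271). Both passed the unadjusted threshold in each of the 8 fits that left out a library, after GC correction and without mice 3 and 4. DESeq2 gave adjusted p-values of 0.0188 for Shank2 and 0.0249 for Elfn2. Shank1 had a log2 fold change of -0.16 and an unadjusted p of 0.0393. After GC correction these were -0.11 and 0.138, and without mice 3 and 4 they were -0.073 and 0.277. Homer1, Homer2 and Homer3, the direct ligands of mGlu5, had log2 fold changes of -0.10, 0.14 and 0.09 and did not pass, although the p of Homer1 was 0.0296 after GC correction. Neither did Elfn1 (-0.12), Pick1 (-0.15), which binds mGlu7, nor Ncdn (-0.02), a cytoplasmic partner of mGlu5 and the most abundant of the list at 392 FPKM.

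The Gq cascade downstream of group I receptors had 2 of 12 genes past the unadjusted threshold, 1 higher and 1 lower. Its most abundant gene, Prkcb, had 108 FPKM and a log2 fold change of 0.02. The lower one was Dagla, which makes the endocannabinoid 2-arachidonoylglycerol, at -0.16 (unadjusted p = 0.0179). Its p was 0.0616 after GC correction, with a log2 fold change of -0.12, and 0.066 without mouse 10. Mgll, which degrades the same endocannabinoid, was the higher one at 0.17 (unadjusted p = 0.0494). Its p was 0.131 without mice 3 and 4 (log2 fold change 0.12) and 0.266 without mouse 4 alone. It passed in 2 of the 8 fits that left out a library, and its lowest log2 fold change over these fits was 0.082. Dagla was at 107 to 123 CPM under the DHEA label and at 124 to 138 CPM under the other, without overlap. Gnaq, Plcb1 and Itpr1, the G protein, phospholipase and calcium channel of the cascade, had log2 fold changes of 0.02, 0.05 and 0.06.

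In the Gi/o cascade of groups II and III, 2 of 16 genes passed the unadjusted threshold, both lower in the libraries labelled DHEA. They were Kcnj6 (-0.15, unadjusted p = 0.0259) and Kcnj9 (-0.20, unadjusted p = 0.0278), subunits of the potassium channels that these G proteins open. Without mice 3 and 4, p was 0.109 for Kcnj6 and 0.23 for Kcnj9, and for Kcnj9 it was 0.056 after GC correction. Kcnj3, another subunit, had a log2 fold change of 0.05. Gnb1, the most abundant gene at 178 FPKM, had a log2 fold change of 0.08, Gnao1 one of -0.03 and Adcy1 one of 0.06, and none of these passed. Of 6 genes for receptor desensitization, 1 passed. Arrb2, which encodes an arrestin that binds phosphorylated receptors, was at 32.5 to 37.2 CPM under the DHEA label and at 42.0 to 44.0 CPM under the other, without overlap. Its log2 fold change was -0.28 (standard error 0.07, unadjusted p = 0.00093, edgeR adjusted p = 0.245), and DESeq2 gave an adjusted p of 0.0198. Grk2, the most abundant of the list at 47.0 FPKM, had a log2 fold change of 0.01 and Arrb1 one of 0.06.

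Genes of the long-term depression that group I receptors trigger did not pass the threshold (0 of 7). Map1b, the most abundant at 119 FPKM, had a log2 fold change of -0.09, and Arc one of -0.29 with a standard error of 0.20, which was 0.012 without mice 3 and 4. Of 13 genes for the handling of glutamate and NAAG, 4 passed, 3 with a higher and 1 with a lower mean in the libraries labelled DHEA. Glul, the glutamine synthetase of astrocytes, was the most abundant at 653 FPKM. It was at 1853 to 2113 CPM against 1582 to 1744 CPM, without overlap, with a log2 fold change of 0.24 (standard error 0.07, unadjusted p = 0.0023, edgeR adjusted p = 0.275). The glutamate transporters Slc1a2 (0.18, unadjusted p = 0.0257) and Slc1a3 (0.15, unadjusted p = 0.0386), both chiefly astrocytic, passed in the same direction with groups that overlapped. After GC correction their p-values were 0.061 and 0.094. Rimklb, which synthesizes NAAG, the peptide ligand of mGlu3, was lower at -0.19 (unadjusted p = 0.0191). Without mice 3 and 4 its log2 fold change was -0.16 (unadjusted p = 0.0747), and after GC correction it was -0.24 (unadjusted p = 0.0050). Slc17a7, the main vesicular glutamate transporter of the hippocampus, had a log2 fold change of -0.09, and Folh1, which cleaves NAAG, one of 0.23 (standard error 0.12), neither past the threshold with all libraries, though without mice 3 and 4 their p-values were 0.0225 and 0.0147. Of the 12 signalling genes that passed, Shank2, Elfn2, Arrb2 and Glul did so in 8 of 8 fits that left out a library, and the others in 2 to 7.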

How the data were processed

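Per the paper's methods and the submitters' processing notes, the authors removed low-quality reads (fastp is named), aligned paired-end reads with HISAT2 to GRCm39 and counted them per gene with HTSeq. Versions, annotation and strand setting are not given in the sources used here, so reads of overlapping or antisense genes cannot be told apart. They deposited raw counts for 29442 genes and FPKM derived from them, with 1 length per gene (equal within 0.1% between libraries for 25234 of 25234 genes). The value columns all matched sample titles, and 0 rows lacked a gene name.

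The counts of 27612 genes with at least 1 count were normalized by TMM and tested with the quasi-likelihood test of edgeR 4.0.16 in R 4.3.3 (prior count 0.125), DHEA against sesame oil, 4 libraries each, with Benjamini-Hochberg adjustment over all genes. The standard error was the log2 fold change divided by the square root of F. For single values, an exact permutation test (two-sided, 70 allocations) was used, and its smallest possible p is 0.0286. No batch or pairing is labelled, and p-values measure the spread between mice. Values of each member, the most abundant gene and every gene with an unadjusted p under 0.05 of each signalling list, and the most abundant gene of each marker list were to be named. Any other gene of these lists was picked with its values in view. The receptors and lists were chosen with earlier results of these data known. The partner protein listed as Tamalin was found as Grasp, its older symbol.

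The fit was repeated with DESeq2 1.42.0, with RLE factors, with a filter of 10 counts in all or filterByExpr, with robust moderation, with a prior count of 1, on log2(FPKM + 1) and log2(FPKM + 0.1) by limma-trend (limma 3.58.1), after removal of 13 mitochondrially encoded genes, with a GC correction (lowess, span 0.3, GC content from GENCODE vM21 for 92.7% of 16813 genes averaging 10 counts or more) and without each library. Fits without mice 3 and 4 and without mice 9 and 11 were added after seeing the data. Only the edgeR fit with its main settings was tested on simulated counts, with changes larger than those of the receptors. Some genes of the lists are not reported here. The study's experiments other than RNA-seq were not analysed here.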

Additional observations from a re-analysis of the deposited data

Results flagged for a closer look

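In 4 of 82 groups of 4 values, the gap between the most extreme library and its nearest neighbour, as a ratio to the range of the group, exceeded Dixon's critical value. Chance gives about 4.1 such groups. None of them was a receptor gene. Mouse 4, labelled DHEA, stood apart in the summed astrocyte markers (1022 CPM, ratio 0.89). Among the libraries labelled sesame oil, Kcnj6 was apart in mouse 10 (263 CPM, ratio 0.905), Shank1 in mouse 16 (546 CPM, ratio 0.905) and Slc1a3 in mouse 9 (698 CPM, ratio 0.855).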

How the results depend on the processing

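Over the 10 other settings with all libraries, the log2 fold changes of the 6 receptors kept their sign. GC correction, however, brought Grm5 to 0.00044, Grm2 to -0.035, Grm4 to -0.053 and Grm8 to 0.075. The unadjusted p of Grm3 was above 0.05 only with limma-trend on FPKM, where 0 receptors were called. There it was 0.0677 with a pseudocount of 1 and 0.0592 with 0.1. The log2 fold changes of Grm3 in these 2 fits were 0.21 and 0.22, against 0.25 by edgeR. Without mice 3 and 4, chosen after seeing the data, 0 receptors were called, and the signs of Grm5 (-0.038), Grm2 (0.032), Grm4 (0.066) and Grm7 (0.021) turned. For Grm7 this follows from the choice of those mice, whose Grm7 was lowest. Leaving out each library gave 0 to 2 receptors past the unadjusted threshold (2 without mouse 7, with 3667 genes in all, and 0 without mouse 4 or 5, with 1983 and 1786), -0.15 to 0.00036 for Grm2 and -0.29 to 0.016 for Grm4. The number of receptors with groups that did not overlap was 0 to 1, with Grm3 in that state without mouse 11 and Grm4 without mouse 10, and 1 (Grm3) without mice 9 and 11. Smaller groups separate more easily, and the share of all genes without overlap in these splits is not given here, so no conclusion is drawn. The libraries of mice 9 and 11 have later record numbers than the other 6, and the design text counts 6 tissues. Genes with an adjusted p under 0.05 numbered 0 with all libraries, 153 with DESeq2, 4 with robust moderation, 0 to 93 with each library left out (93 without mouse 7), 1 without mice 3 and 4 and 38 without mice 9 and 11. Genes meeting the study's thresholds numbered 442, and 164 with DESeq2, 284 with at least 10 counts, 62 with filterByExpr. On log2(FPKM + 1) limma-trend gave 1, and with a pseudocount of 0.1 it gave 48. Filtering leaves fewer genes to test, pseudocounts shrink fold changes of low genes, and otherwise the cause was not tested. For Grm8, with a mean count of 279, the spread within groups (7.83% and 7.99%) was close to the 5.99% of counting error.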
